A study of Mus musculus with 4 samples.

Results

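CpG-rich start sites without RYBP were the subject of this comparison: autosomal start sites of protein-coding genes that carry the dense CpG content typical of a CpG island, yet had no RYBP region in FLK1+ mesoderm. A start site was taken as CpG-rich when the 500 bp on each side of it held at least 3 CpG per 100 bp, and it was kept when none of the start sites of its gene had a region of the merged RYBP list within 2.5 kb. These criteria gave 3952 start sites of 2182 genes, out of 24810 CpG-rich start sites of 12928 genes (16.9% of these genes) and 43994 autosomal protein-coding start sites of 21273 genes. The absence of a region and the CpG minimum are thus what chose the start sites and are given as description only.

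RYBP was measured by chromatin immunoprecipitation and sequencing (ChIP-seq) with an antibody to DEDAF, another name of RYBP, in FLK1+ mesoderm isolated from embryoid bodies of mouse embryonic stem cells (strain C57Bl/6 X Sv129, labelled WT, day 3.75 of differentiation). The series held 2 ChIP samples, replicate 1 and replicate 2, and 2 input samples that entered the peak calling and were not analysed here. There was no other genotype, time or treatment to compare. The list of replicate 1 held 14794 peaks and that of replicate 2 held 18154, and their union, the merged list, held 22409 regions, of which 9901 overlapped peaks of both replicates. The lists hold no read counts, although by the published sequencing summary more reads were mapped for replicate 1, the sample with fewer peaks. A start site without a region is thus one where no peak passed the threshold, which is not proof that RYBP was absent there.

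RYBP is a subunit of variant forms of Polycomb repressive complex 1, the enzyme that attaches ubiquitin to histone H2A, and it stimulates that activity. Such complexes are known to settle on unmethylated CpG islands, in part through KDM2B, a partner whose zinc finger domain binds unmethylated CpG. Most CpG islands lie at promoters, both of housekeeping genes that are active in every cell and of developmental regulators that Polycomb complexes keep silent.

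The 3 genes of highest CpG density without a region were Thoc7, Fam193a and Lsm14a, and the 250 bases before their start sites are shown because their CpG content exceeded that of most start sites with a region. Each is followed by the start site with regions in both replicates on the same chromosome whose CpG density was nearest. CpG dinucleotides are in capitals, and all sequences run 5′ to 3′ on the strand of the gene and end at the base before the start site (mm9 assembly). The windows were chr14:14793740-14793989 on the minus strand for Thoc7, chr14:40286377-40286626 on the minus strand for Nrg3, chr5:34712812-34713061 on the plus strand for Fam193a, chr5:122500112-122500361 on the minus strand for Cux2, chr7:35174560-35174809 on the minus strand for Lsm14a and chr7:38892554-38892803 on the minus strand for Ccne1. None of these windows overlapped an annotated exon.
Thoc7: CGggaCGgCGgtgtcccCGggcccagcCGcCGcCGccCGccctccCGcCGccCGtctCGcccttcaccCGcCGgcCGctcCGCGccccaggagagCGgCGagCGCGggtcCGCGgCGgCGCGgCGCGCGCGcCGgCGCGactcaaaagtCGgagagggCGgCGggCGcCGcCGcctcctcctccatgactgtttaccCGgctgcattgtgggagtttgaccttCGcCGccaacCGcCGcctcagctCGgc
Nrg3: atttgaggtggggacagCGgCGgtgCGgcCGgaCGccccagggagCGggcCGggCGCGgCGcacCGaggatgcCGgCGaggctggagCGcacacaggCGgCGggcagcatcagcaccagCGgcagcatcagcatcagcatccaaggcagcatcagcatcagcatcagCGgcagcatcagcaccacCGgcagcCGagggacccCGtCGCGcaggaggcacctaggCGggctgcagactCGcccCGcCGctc
Fam193a: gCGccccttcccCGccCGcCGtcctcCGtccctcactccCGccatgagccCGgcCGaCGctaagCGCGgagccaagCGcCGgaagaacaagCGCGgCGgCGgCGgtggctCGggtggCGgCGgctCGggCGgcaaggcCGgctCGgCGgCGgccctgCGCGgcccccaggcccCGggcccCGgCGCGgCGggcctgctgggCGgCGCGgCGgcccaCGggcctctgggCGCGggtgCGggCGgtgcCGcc
Cux2: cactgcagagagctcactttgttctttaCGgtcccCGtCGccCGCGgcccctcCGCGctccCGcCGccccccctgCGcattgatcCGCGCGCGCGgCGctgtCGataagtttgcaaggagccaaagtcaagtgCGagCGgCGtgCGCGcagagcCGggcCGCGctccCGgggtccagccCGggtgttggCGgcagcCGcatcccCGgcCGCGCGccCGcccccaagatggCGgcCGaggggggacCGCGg
Lsm14a: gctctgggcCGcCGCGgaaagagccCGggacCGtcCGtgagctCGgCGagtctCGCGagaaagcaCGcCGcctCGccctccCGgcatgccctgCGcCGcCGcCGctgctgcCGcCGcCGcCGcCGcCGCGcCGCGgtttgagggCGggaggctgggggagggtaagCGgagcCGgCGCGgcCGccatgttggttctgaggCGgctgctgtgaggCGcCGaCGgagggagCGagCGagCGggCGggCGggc
Ccne1: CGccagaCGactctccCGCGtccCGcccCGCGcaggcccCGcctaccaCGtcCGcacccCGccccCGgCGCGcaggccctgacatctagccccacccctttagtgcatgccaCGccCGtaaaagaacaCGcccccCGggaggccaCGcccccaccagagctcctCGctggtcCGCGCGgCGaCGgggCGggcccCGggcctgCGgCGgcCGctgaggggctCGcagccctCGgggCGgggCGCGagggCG

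Within 500 bp of its start site, Thoc7, which encodes a subunit of the THO mRNA export complex, held 13.1 CpG per 100 bp. The nearest region lay 51213 bp away. Nrg3, which encodes a neuregulin ligand, held 13.1 CpG per 100 bp and had peaks of 3.51-fold enrichment over input in replicate 1 and 4.23-fold in replicate 2. Lsm14a, which encodes a protein of cytoplasmic mRNA processing bodies, held 12.7 CpG per 100 bp and lay 75733 bp from the nearest region. Ccne1, the gene of cyclin E1, held 12.7 CpG per 100 bp and had peaks of 3.97-fold and 3.68-fold enrichment. The 250 bases shown held 45 CpG for Thoc7 and 27 for Nrg3, 44 for Fam193a and 38 for Cux2, and 42 for Lsm14a and 36 for Ccne1. A start site of very high CpG density was therefore seen both with and without a region.

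A further 2 pairs show genes of families that were frequent among those without a region. Each is the member of highest CpG density in its family whose window overlapped no annotated exon, and the partners were chosen as above. A proteasome pair chosen likewise, Psma3 with Bzw2, is not printed.
The germline gene D1Pas1, which encodes a testis RNA helicase of the DEAD-box type, is paired with 1700012A16Rik, and Rps3a, which encodes a protein of the small ribosomal subunit, with Bcan, the gene of the brain proteoglycan brevican. The windows were chr1:188791045-188791294 on the plus strand for D1Pas1, chr1:155272042-155272291 on the plus strand for 1700012A16Rik, chr3:85946625-85946874 on the minus strand for Rps3a and chr3:87804279-87804528 on the minus strand for Bcan.
D1Pas1: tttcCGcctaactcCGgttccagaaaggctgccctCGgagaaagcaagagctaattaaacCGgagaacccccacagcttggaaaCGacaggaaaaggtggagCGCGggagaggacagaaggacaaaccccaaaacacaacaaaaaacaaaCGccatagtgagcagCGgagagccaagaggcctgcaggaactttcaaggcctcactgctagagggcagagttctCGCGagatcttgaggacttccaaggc
1700012A16Rik: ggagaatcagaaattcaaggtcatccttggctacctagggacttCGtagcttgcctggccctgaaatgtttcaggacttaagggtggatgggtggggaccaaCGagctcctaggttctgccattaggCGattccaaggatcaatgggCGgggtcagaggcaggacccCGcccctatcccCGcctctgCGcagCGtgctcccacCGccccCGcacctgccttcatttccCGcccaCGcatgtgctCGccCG
Rps3a: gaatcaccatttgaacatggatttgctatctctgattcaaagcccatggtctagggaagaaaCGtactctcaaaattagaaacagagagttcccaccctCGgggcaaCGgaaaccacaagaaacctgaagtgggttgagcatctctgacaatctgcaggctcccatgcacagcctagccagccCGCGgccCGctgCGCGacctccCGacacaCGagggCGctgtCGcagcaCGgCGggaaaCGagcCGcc
Bcan: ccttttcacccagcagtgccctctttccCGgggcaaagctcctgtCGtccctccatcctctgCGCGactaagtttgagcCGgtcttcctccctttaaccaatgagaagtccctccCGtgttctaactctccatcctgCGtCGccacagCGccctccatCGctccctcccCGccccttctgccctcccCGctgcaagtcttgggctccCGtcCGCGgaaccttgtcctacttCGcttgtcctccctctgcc

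Rps3a and Bcan each held 8.59 CpG per 100 bp around the start site. GC content was 59.2% at Rps3a and 65.9% at Bcan over the same 1 kb. D1Pas1 held 6.59 CpG per 100 bp at 59.4% GC, against 6.69 CpG per 100 bp at 62.2% GC for 1700012A16Rik. In both pairs the gene without a region had the lower GC content at nearly the same CpG density.

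Of the 12928 genes with a CpG-rich start site, 2182 (16.9%) had no merged region within 2.5 kb of any start. The list of replicate 1 alone left 36.0% of the genes without a peak, the list of replicate 2 alone left 20.4%, and 40.6% lacked a region found in both replicates. Among the 8345 genes with no CpG-rich start, 88.8% were without a region. The start sites without a region were mostly far from any: the median distance was 27761 bp, 17.7% had a region within 10 kb and 15.5% had none within 100 kb. Farthest from a region were Slitrk1, at 2760618 bp, and Slitrk3, at 2499400 bp, both encoding neuronal membrane proteins.

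Values close to the limits of the definition are given here once. The genes nearest to 2.5 kb from a region were Dctn2, a dynactin subunit, at 2519 bp and Dlg4, a postsynaptic scaffold, at 2539 bp. Just inside were H3f3b, a histone H3.3 gene, at 2482 bp and Cntrob, a centriole protein, at 2464 bp. A further 291 CpG-rich start sites had no region themselves but belonged to genes with a region at another start, and were left out. Adam32 had 3.10 CpG per 100 bp and was included, whereas 1110003O08Rik, also without a region, fell just under the minimum.

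Start sites without a region were poorer in CpG and in GC than those with one. The median CpG density was 5.29 per 100 bp without a region, 6.39 with a peak of 1 replicate and 7.39 with peaks of both replicates, over 3952, 5847 and 14720 start sites. The median GC content was 55.7%, 59.2% and 62.9% in the same order. The unbroken CpG-rich stretch around the start had a median length of 1000 bp, 1130 bp and 1360 bp. Start sites with a peak of 1 replicate thus lay between the other classes in all 3 measures, although the classes overlapped: the upper quartile of CpG density was 6.49 per 100 bp without a region and the lower quartile 5.69 with peaks of both replicates. Using the list of 1 replicate at a time, the difference in median CpG density between start sites without and with a peak was −1.40 (replicate 1) and −1.90 (replicate 2) per 100 bp, and the difference in median GC content was −4.90 and −5.99 percentage points. Neither difference was tested, since start sites are not replicates and the classes were chosen by the peaks themselves.

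**Figure D1:**
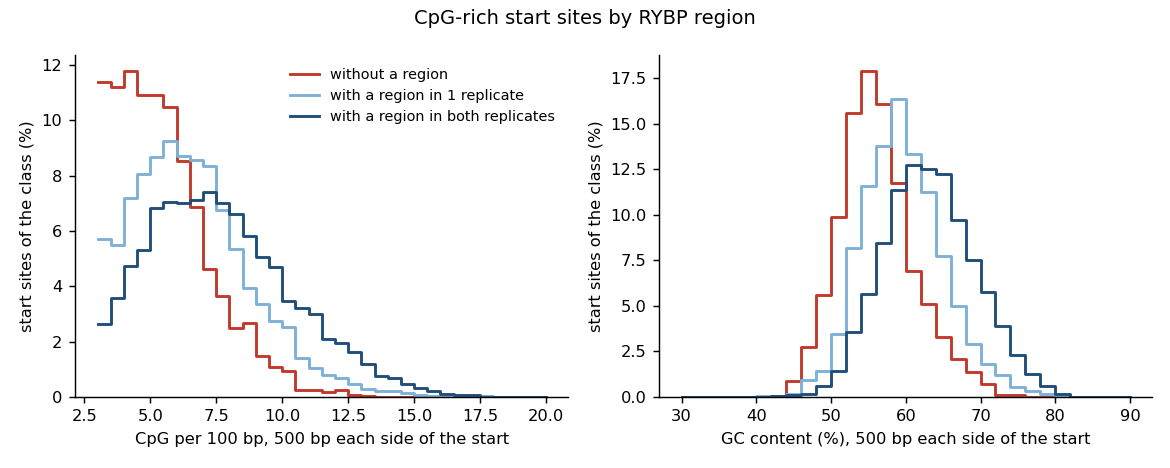
Distribution of CpG density (left, CpG per 100 bp) and GC content (right, percent) over the 1 kb around CpG-rich start sites, as the percent of the start sites of each class, for those without a region (red), with a peak of 1 replicate (light blue) and with peaks of both (dark blue). The medians move from 5.29 through 6.39 to 7.39 CpG per 100 bp and from 55.7% through 59.2% to 62.9% GC, with wide overlap.

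The share of genes without a region fell steadily with CpG density at the densest start, from 43.2% (95% exact interval 40.4 to 46.0) at 3 to 4 CpG per 100 bp to 2.39% (1.77 to 3.16) at 10 or more. It fell further across GC content, from 62.7% of genes under 50% GC to 1.48% of genes at 70% or more. Both replicate lists showed the same order, with higher shares for the list of replicate 1. Genes that had a region were also less often found in both replicates where CpG was sparse, 54.8% at 3 to 4 CpG per 100 bp against 86.5% at 10 or more, and their median enrichment in replicate 2 was 3.57-fold against 4.34-fold. These intervals cover counting error only.

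**Figure D2:**
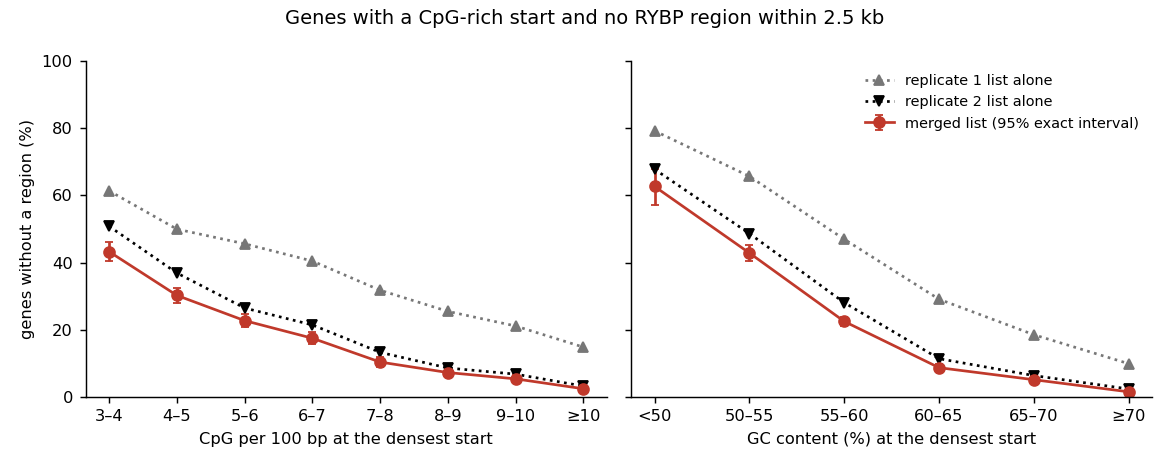
Percent of genes with a CpG-rich start that had no region within 2.5 kb, by CpG density (left) and GC content (right) at the densest start. Red points are the merged list with 95% exact intervals, and triangles are the list of replicate 1 (upward) or replicate 2 (downward) alone. The merged share falls from 43.2% to 2.39% over CpG density and from 62.7% to 1.48% over GC content, and both replicate lists fall in the same order.

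CpG density and GC content rise together, so the share was also read within classes of GC content, a division chosen after the data had been seen. At 5 to 6 CpG per 100 bp, 38.3% of genes under 55% GC were without a region (33.8 to 43.0), against 22.4% at 55 to 60% GC and 7.80% at 60 to 65% GC (5.49 to 10.7). Within 60 to 65% GC, the share was 19.3% at 3 to 4 CpG per 100 bp and stayed between 7.10% and 9.07% from 4 to 10, but with the list of replicate 1 alone it went up from 19.1% at 4 to 5 to 32.3% at 9 to 10. Among genes under 55% GC it went down from 53.4% at 3 to 4 CpG per 100 bp to 36.5% at 6 to 7, and among those at 65% GC or more from 16.0% at 6 to 7 to 2.18% at 10 or more. At a given CpG density, start sites with less GC were thus more often without a region up to 65% GC, whereas the order over CpG density between 60 and 65% GC depended on the peak list. The observed to expected CpG ratio, which divides CpG by what the C and G content would give, had a median of 0.695 without a region and 0.761 with one. At 5 to 6 CpG per 100 bp, where a lower GC content raises it, it was 0.719 without and 0.665 with a region. GC content also moves with the recovery of DNA fragments in amplified libraries, and the part of that in these shares was not tested.

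**Figure D3:**
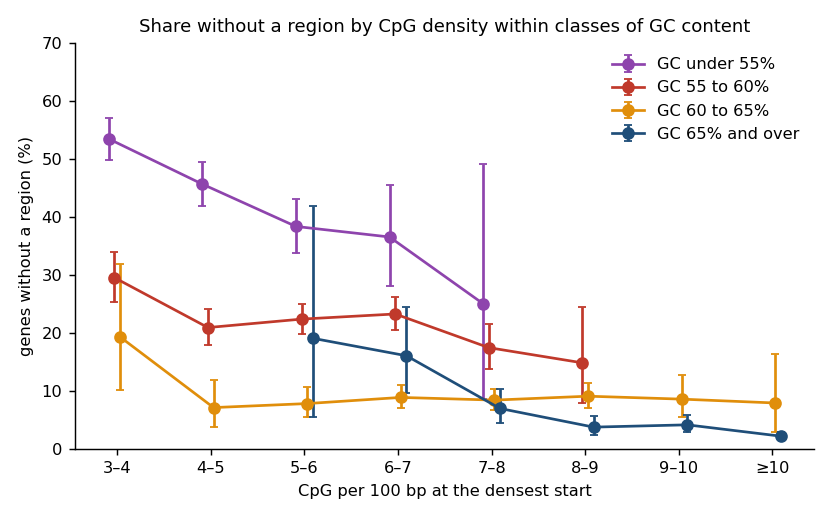
Percent of genes without a region by CpG density, drawn separately for 4 classes of GC content, with 95% exact intervals and only for classes of at least 20 genes. Curves are stacked by GC content up to 65%, and in this merged list the curve for 60 to 65% GC lies between 7.10% and 9.07% from 4 CpG per 100 bp upward.

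The share without a region differed widely between gene families, which were defined by symbol. Of the 46 families with at least 10 CpG-rich genes, 16 had a larger share without a region than the 16.9% over all genes, 30 had a smaller share, and 10 of these had no such gene (5 with the list of replicate 1 alone and 8 with that of replicate 2). The side of the overall share was the same with the list of each replicate alone and with regions of both replicates in 40 of the 46 families.

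Proteasome and cytosolic ribosomal protein genes were often without RYBP. Among proteasome genes, whose products degrade ubiquitin-tagged proteins, 26 of 46 (56.5%, 95% exact interval 41.1 to 71.1) had no region. Examples were Psme4, a proteasome activator, with 8.39 CpG per 100 bp, and Psma3, a subunit of the core particle, with 7.09. Among cytosolic ribosomal protein genes, 38 of 78 (48.7%) had no region although their median CpG density of 7.09 per 100 bp was above the 6.89 of all genes. Rpl34, at 8.99 CpG per 100 bp on chromosome 3, was 354477 bp from the nearest region, and Rps2, with the same density on chromosome 17, was 3869 bp away. Rpl15 held 8.39 and Rplp1, a ribosomal stalk protein, 8.29 CpG per 100 bp.

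Respiratory and mitochondrial genes followed. Of the complex I genes, which encode the entry enzyme of the respiratory chain, 18 of 39 (46.2%) had no region, among them Ndufb5 with 6.89 CpG per 100 bp and Ndufa4 with 6.09. Of the mitochondrial ribosomal proteins it was 31 of 76 (40.8%), among them Mrpl37 with 7.79 CpG per 100 bp. Of the tRNA synthetases, which charge tRNAs with amino acids, it was 15 of 36 (41.7%), led by Eprs with 9.89. Splicing factors and Lsm proteins had 18 of 58 (31.0%) and translation initiation factors 12 of 42 (28.6%), among them Eif4g1, the scaffold of cap binding, with 9.49 CpG per 100 bp. RNA polymerase subunits, at 5 of 26 (19.2%), were close to the overall share.

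The housekeeping genes that did have a region had it in both replicates less often than genes at large: peaks of both were found at 113 of the 238 (47.5%, 41.0 to 54.0) over 8 families, against 72.8% of all genes with a region. By family they were found at 18 of the 40 cytosolic ribosomal protein genes with a region, 35.6% of the mitochondrial ones and 28.6% of the complex I genes, and at up to 61.9% (RNA polymerase subunits) in the other families. With the list of replicate 1 alone, 75.6% of the cytosolic ribosomal protein genes and 82.1% of the complex I genes had no peak, against 36.0% of all genes.

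**Figure D4:**
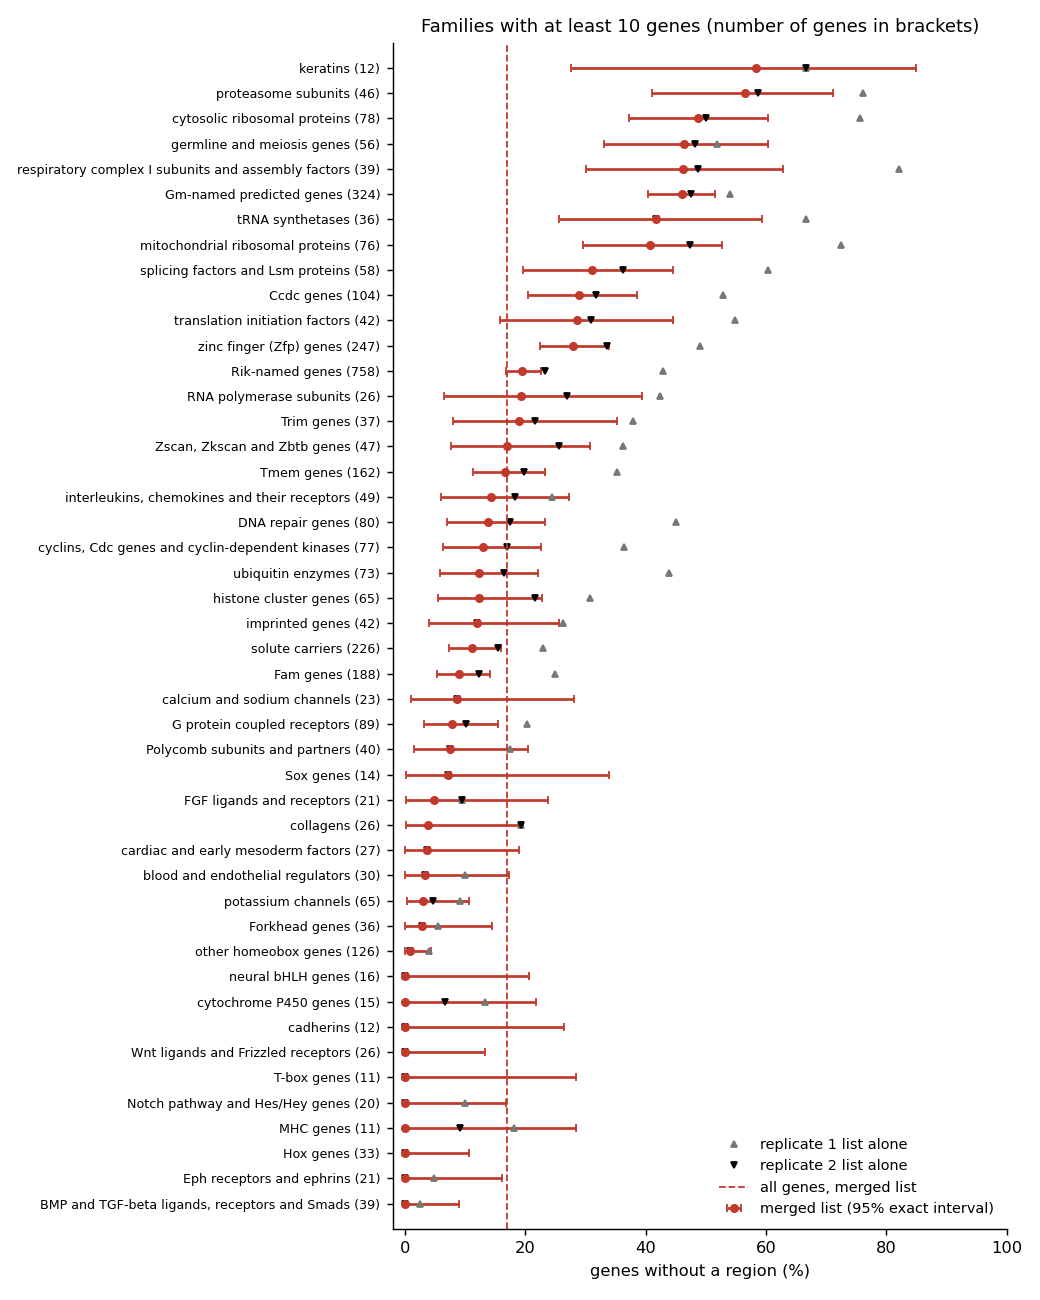
Percent of genes without a region in each family with at least 10 CpG-rich genes (number in brackets). Red points and bars are the merged list with 95% exact intervals, triangles the list of each replicate alone, and the dashed line the 16.9% of all genes. Housekeeping families, germline genes and keratins stand at the top, and 10 families with no gene lacking a region stand at 0 at the bottom, with developmental regulators among them.

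Pooling the 8 housekeeping families, 163 of 401 genes (40.6%, 35.8 to 45.6) had no region. Their share was above that of all genes in each class of CpG density up to 10 per 100 bp: 62.2% against 22.7% at 5 to 6, and 25.6% against 7.22% at 8 to 9. It was also above within classes of GC content, with 43.8% of the 162 housekeeping genes at 55 to 60% GC and 19.4% of the 93 at 60 to 65% GC, where all genes stood at 22.4% and 8.67%. The genes of these 8 families were therefore more often without RYBP than all genes of like CpG density or like GC content. No difference was tested, because genes of a family are not replicates.

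**Figure D5:**
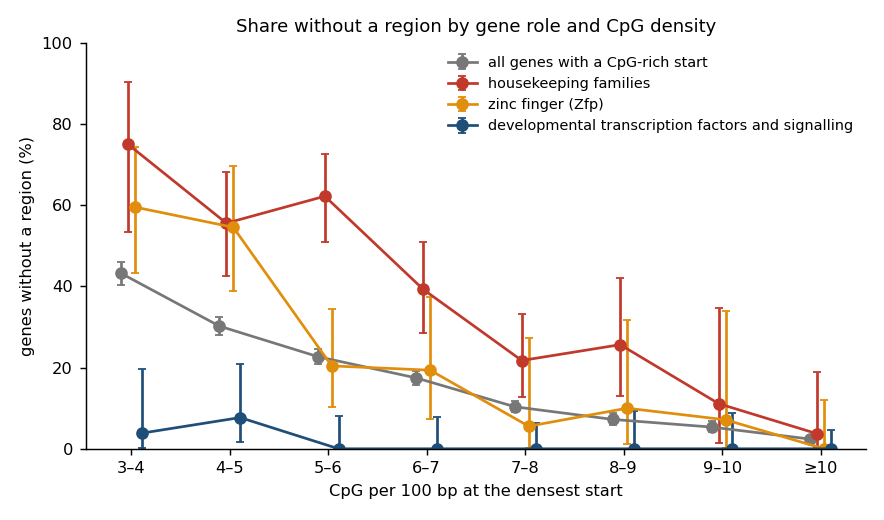
Percent of genes without a region by CpG density at the densest start, with 95% exact intervals, for all genes (grey), the 8 housekeeping families (red), Zfp zinc finger genes (orange) and developmental transcription factors and signalling genes (blue). The housekeeping curve runs above the grey one and the developmental curve at 0 from 5 CpG per 100 bp upward.

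Developmental regulators were nearly all with RYBP. Over 12 families of developmental transcription factors and signalling genes, 4 of 368 genes (1.09%, 0.297 to 2.76) lacked a region, at all densities above 5 CpG per 100 bp none did, and no list of a single replicate brought any of these families above the share of all genes. None of the 33 Hox genes, which set position along the body axis, lacked a region, which allows a share of up to 9.09% (3 of 33; the exact upper limit is 10.6%), and this held in each replicate. The genes that lacked one included Foxr1, a forkhead gene, with just under 5 CpG per 100 bp, Sox15 with 4.20 and Fgf6, a growth factor of muscle, with 3.30. These lay in the lower part of the CpG range. Low shares were not particular to developmental regulators: 0 of 15 cytochrome P450 genes and 0 of 11 MHC genes lacked a region. Among potassium channels it was 2 of 65 (3.08%) and among collagens 1 of 26 (3.85%). With the list of replicate 1 alone these families stood at 13.3%, 18.2%, 9.23% and 19.2%, against 36.0% of all genes.

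Regulators of the lineages that arise from this mesoderm were also seldom without a region. Of 30 blood and endothelial regulators, Nfe2 alone, an erythroid and platelet factor, had none (3.30 CpG per 100 bp, 14728 bp from the nearest region). Of 27 cardiac and early mesoderm factors, Mef2c alone, a muscle and heart factor, had none (3.40 CpG per 100 bp, 6353 bp). Both had low CpG density at their densest start. Of 40 Polycomb genes, 3 lacked a region: Eed, a core subunit of Polycomb repressive complex 2, with 8.79 CpG per 100 bp, Pcgf3, a subunit that defines a variant of complex 1, with 6.59, and L3mbtl2, a partner in another variant, with 5.39.

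Germline and meiosis genes, many of which are methylated in somatic cells, were without RYBP in 26 of 56 cases (46.4%, 33.0 to 60.3). Besides D1Pas1 these included Sycp1, of the synaptonemal complex, with 6.49 CpG per 100 bp, and Mael, a factor of transposon silencing, with 6.09. Germline genes with a region had it in both replicates in 86.7% of cases, against 47.5% over the housekeeping families, and the lists of replicates 1 and 2 alone left 51.8% and 48.2% without a peak. Their CpG density was low, with a median of 4.95 per 100 bp. At 3 to 4 CpG per 100 bp 13 of 16 (81.25%) lacked a region, against 43.2% of all genes. At 4 to 5 it was 8 of 14 (57.1%) against 30.2%, and at 5 to 6 it was 1 of 6 (16.7%) against 22.7%. At 55 to 60% GC it was 15 of 23 (65.2%), where all genes stood at 22.4%. These counts are small, and no difference was tested. DNA methylation was not measured in these samples.

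Among the Zfp zinc finger genes, a family that includes many transcriptional repressors, 69 of 247 (27.9%) lacked a region. The share was 59.5% at 3 to 4 CpG per 100 bp and 54.5% at 4 to 5, above the 43.2% and 30.2% of all genes, and close to that of all genes at 5 to 6 (20.4% against 22.7%). Among 65 histone cluster genes 8 lacked a region (12.3%), and among 42 imprinted genes 5 did (11.9%): Copg2, Nnat, Mcts2, Peg3 and Zim1. Peg3 and Zim1, neighbours in the Peg3 domain of chromosome 7, were 346600 bp and 312631 bp from the nearest region. Of 12 keratin genes, 7 had none (58.3%), with a median of 3.45 CpG per 100 bp over the family.

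Predicted genes with near-identical copies made up a group of their own. Of 324 genes with a provisional Gm name, 149 (46.0%) lacked a region, and 96 of these 149 had a start site with a near-identical copy elsewhere (at least 90% identity over at least 50% of the 1 kb). Of the 209 Gm genes without a copy, 53 lacked a region (25.4%). Over all start sites, 4.63% of those without a region had such a copy, against 0.856% of those with one, and 3.39% against 0.190% had 2 or more copies. The deposited peaks came from reads with at most 2 placements in the genome, so reads from start sites with 2 or more copies could exceed that limit, and their lack of a region cannot be told apart from lack of mappable sequence. Without any gene start that had a copy, 16.0% of genes remained without a region, near the 16.9% of all.

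Genes without RYBP had a neighbour also without RYBP more often than genes with a region did. Of the 2182 genes, 1127 (51.6%) had a neighbour among CpG-rich genes that also lacked a region. Among the 10746 genes with a region it was 2739 (25.5%). Neighbours more than 10 kb away gave 32.1% (678 of 2115) against 24.5% (2572 of 10500), a smaller difference. Most genes had a neighbour on either side, and a lack of a region at either one counted. These shares are therefore not comparable with the 16.9% of all genes that lacked a region, which counts single genes. Starts close together share much of the 2.5 kb searched around each, so close pairs tend to fall in the same class by definition. The size of this effect was not measured. A start of another gene on the opposite strand within 1 kb was found for 21.1% of genes without and 16.4% of genes with a region. Counted by start site it was 21.9% without a region, 22.5% with a peak of 1 replicate and 14.2% with peaks of both (17.3% of all). Start sites with a peak of 1 replicate thus had such a partner as often as those without a region.

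The 2182 genes fell into 1498 runs along the chromosomes, of which 1055 held a single gene. The longest, of 12 genes on chromosome 4 (88401494 to 88451435, mm9), was the interferon zeta cluster with Ifnz, and all 12 start sites had near-identical copies. The next, of 9 genes each, lay on chromosome 14 at 6359078 to 8007047 and 26722368 to 27077954 and also consisted of start sites with copies. The longest runs with no copies held 7 genes, on chromosome 19 (8912219 to 8994864, from Bscl2 to B3gat3, with Ints5 and Ganab) and on chromosome 17 (35263331 to 35372737, with Bag6 and Prrc2a). By autosome, the share of genes without a region ran from 10.6% on chromosome 8 to 25.9% on chromosome 14. The value of chromosome 14 includes its runs of start sites with copies.

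The promoters of start sites without a region were searched for 11 short strings. TATAAA was sought on the strand of the gene only, 20 to 40 bp before the start. The others were sought within 250 bp before to 50 bp after the start, on both strands. The ETS core CCGGAAG, which ETS family activators bind, was present in 27.6% of start sites without a region (26.2 to 29.0), in 15.5% of those with one (15.0 to 16.0) and in 17.3% of all CpG-rich start sites. With a peak of 1 replicate it was 24.7%, near the share without a region, and with peaks of both replicates it was 11.8%. At 5 to 6 CpG per 100 bp the shares were 31.1% and 18.6%. Read the other way, 25.7% of the 2265 genes with the string lacked a region against 15.0% of the 10663 without it, and at 60 to 65% GC it was 14.8% against 7.36%. The ETS string was hence more frequent among start sites without RYBP than among all those with a region, at like CpG density and at like GC content. Start sites with a peak of 1 replicate held it nearly as often.

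Other strings linked to housekeeping promoters went the same way at lower frequency. The NRF1 motif was found in 3.52% of start sites without and 1.74% with a region (2.01% of all), the YY1 motif in 2.53% and 1.40% (1.58% of all), the BANP palindrome in 2.28% and 0.865% (1.08% of all), and the core of the ZNF143 motif in 1.37% and 0.462% (0.605% of all). CCAAT stood at 40.2% and 33.4% (34.5% of all), and TGACGTCA, the cyclic AMP response element, at 4.18% and 3.14% (3.29% of all). With a peak of 1 replicate, NRF1 stood at 2.26%, YY1 at 2.41%, BANP at 1.18%, ZNF143 at 0.804%, CCAAT at 36.6% and TGACGTCA at 4.34%. The YY1 motif and TGACGTCA were thus about as frequent with a peak of 1 replicate as without a region. The GC-rich string GGGCGG (SP/KLF) was less frequent without a region, 58.6% against 73.0% (70.5% of all), and at 5 to 6 CpG per 100 bp the shares were 61.0% and 63.5%, and at 6 to 7 they were 65.0% and 71.3%. CACGTG (E-box) at 9.39% and 10.4% (10.2% of all), TTCCCGCC (E2F) at 4.55% and 4.70% (4.64% of all) and TATAAA 20 to 40 bp before the start at 0.633% and 0.739% (0.730% of all) differed little. A string is not a bound site, and binding of these factors was not measured here.

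In gene structure, genes without RYBP were shorter, with a median length of 17.1 kb against 25.5 kb, and 6.32% against 3.91% had a single exon. A single annotated start position was present in 45.3% and 40.3%. Genes with more start positions had more chances to lie near a region, and among genes with 1 start position the share without a region was 18.6%. The surroundings differed little: GC content over 100 kb had a median of 44.6% without and 45.8% with a region, with 4 and 3 other genes starting within 100 kb.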

How the data were processed

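Per the labels and the study's methods, reads were aligned to mm9 with Bowtie 1.1.2b, keeping reads with at most 2 placements, and peaks were called in each ChIP sample against input with MACS2 2.0.10 in broad mode (cutoff 0.1). The deposited peak lists give, for each peak, a position, a score, a fold enrichment over input (a ratio) and −log10 p and q values, as the authors' caller wrote them; the deposited merged list gives positions only and was found to be their union. The design text names another factor and FLK1+ PDGFRa- cells, whereas the title, the antibody and the methods name RYBP and FLK1+ cells. The labels give day 3.75 and the methods day 4.

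Start sites came from GENCODE vM1 protein-coding transcripts and sequence from the NCBIM37 (mm9) assembly. Distances, CpG counts, GC content, CpG-rich stretches (windows of 100 bp with at least 3 CpG) and motifs were computed with python 3.11.15, numpy 2.4.6 and pysam 0.24.0, copies with minimap2 2.31-r1302. Shares carry 95% exact (Clopper-Pearson) intervals. The scripts used no score value. A gene was placed by its start of highest CpG density, and the functions were tested on simulated data. No test was run: with 2 ChIP samples of 1 condition, the list of each replicate alone stands for the error, and only the design text speaks of independent differentiations.

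The members and the gene families, which were defined by symbol, were chosen with earlier results of these data known, and the symbol patterns were corrected after the matched names were read. Named genes are those at the limits of the definition, those of highest CpG density or farthest from a region, the longest runs, and, in each family, the members of highest CpG density. Sequences end before the start site, and windows that overlapped an annotated exon were passed over. The 2 inputs and chromosomes X and Y were not used, and 1 gene is not reported here.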

Additional observations from a re-analysis of the deposited data

How the results depend on the processing

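No paired analysis was possible because no test was run: the inputs, numbered like the ChIP samples, were left out. The differences in CpG density, GC content and stretch length kept their direction under every alternative run. The share of genes without a region depended most on the peak list: it was 28.1% with peaks of −log10 q of at least 2, 40.6% with regions of both replicates, and 20.4% without replicate 1 and 36.0% without replicate 2, because fewer peaks leave more genes without one. The share with a neighbour also without a region was 63.5% and 74.6% under the same settings and 55.8% to 71.0% without either replicate. This share rises as more genes are left without a region. The matching share for genes with a region was not computed at these settings, so the higher values do not show closer grouping. The share of start sites with a near-identical copy was 3.27% and 2.60% under the same settings, 2.74% to 4.19% without either replicate, and 9.51% among genes with a single start position. The difference in median GC content was −5.19 points with regions of both replicates and −5.99 to −4.90 points without either replicate. The difference in median CpG density was −1.90 to −1.40 per 100 bp without either replicate. The difference in median stretch length was −260 bp with a fold enrichment of at least 3, −220 bp with a CpG minimum of 4 per 100 bp and −290 to −250 bp without either replicate. The number of families above the overall share was 17 to 19 without either replicate and 13 with a fold enrichment of at least 3, against 16. The strings found more often without a region numbered 7 in the report and 7 without either replicate. They numbered 8 with a CpG minimum of 4 per 100 bp and 6 among genes with a single start position. The alternatives for motifs, those for families beyond the replicate lists, and the classes of GC content were chosen after seeing the data. The lists hold no reads per start site, which limits every statement on absence.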
